A study of Mus musculus with 9 samples.

Results

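The muscle atrophy ubiquitin ligases are 10 named genes (Fbxo32, Trim63, Trim54, Trim55, Fbxo30, Fbxo31, Fbxo21, Mul1, Cblb and Nedd4), taken with every probe set that the array annotation lists to one of them alone. That gave 21 probe sets for 9 of the 10 genes, out of 45037 probe sets and 18193 genes on the array. Trim55 had no listed probe set and is not analysed here. The muscle was the gastrocnemius of the calf, taken from young adult mice of the outbred CD-1 stock 14 days after surgery. Testosterone mice were castrated and given a pellet of 2.5 mg testosterone with release over 60 days. Castration mice were castrated and given a placebo pellet, and sham mice had a sham operation and a placebo pellet. There were 3 Affymetrix arrays in a group, each loaded with RNA pooled from 3 animals, so an SD is the spread between pools (n = 3) and the number of arrays limits the precision. Values are log2 expression per probe set.

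Ubiquitin ligases attach ubiquitin to chosen proteins and so mark them for the proteasome. In skeletal muscle a small set of them is known from wasting: their transcripts rise with denervation, fasting, glucocorticoids and disuse, largely under the FoxO transcription factors, which Akt restrains. Fbxo32 (atrogin-1) and Trim63 (MuRF1) are the pair most used as markers of atrophy. Fbxo32 is the substrate receptor of a complex built on Skp1 and Cul1, while Trim63 is a RING ligase of the sarcomere.

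The fibre markers were high on every array: 12 of 12 were measured, and all lay between 12.04 and 14.24. The 5 heart markers lay between 2.70 and 3.56, near the array medians of 3.15 to 3.26. Arrays testosterone 2 and sham 2 stood apart, with mean correlations to the other arrays of 0.981 and 0.972 against 0.989 to 0.991 for the other 7. Their adipocyte scores (the mean log2 deviation of 7 measured markers from each gene's own mean) were 1.18 and 0.89, and their macrophage and lymphocyte scores were 1.34 and 0.60. On the castration arrays these scores lay between −0.67 and −0.57 and between −0.33 and −0.20. The adipocyte score was also 0.49 on testosterone 1, against −0.54 on testosterone 3. Fibroblast and matrix scores (9 of 9 markers) were −0.07, −0.56 and −0.33 with testosterone, 0.32, 0.43 and 0.22 after castration, and 0.31, −0.63 and 0.31 in sham, so those of testosterone and castration did not overlap. On testosterone 2 and sham 2 the endothelial scores were −0.36 and −0.46 and the epidermal scores −0.07 and 0.68. The part of other cell types in the results below was not tested. Values that move by over 1.5 times without testosterone 2 and sham 2 are given both ways for the probe sets and genes named below. In whole muscle, fewer cells of a type and less RNA per cell cannot be told apart.

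The promoters of the muscle RING finger genes with a value are shown because Trim63 carries motifs for the regulators named above and Trim54 is its closest measured relative in name and role. Reference promoters (RefSeq, build GRCm38.p6, from 250 bases before to 50 after the start) were found for 8 of the 10 ligases, in 9 entries, with Fbxo32 and Trim55 not among them. The Trim63 window is chr4:134314870-134315169 and the Trim54 window chr5:31116362-31116661, both on the plus strand. Capitals mark matches, on either strand, to the FoxO core GTAAACA and to AGAACA, the hexamer found in androgen and glucocorticoid response elements.
Trim63: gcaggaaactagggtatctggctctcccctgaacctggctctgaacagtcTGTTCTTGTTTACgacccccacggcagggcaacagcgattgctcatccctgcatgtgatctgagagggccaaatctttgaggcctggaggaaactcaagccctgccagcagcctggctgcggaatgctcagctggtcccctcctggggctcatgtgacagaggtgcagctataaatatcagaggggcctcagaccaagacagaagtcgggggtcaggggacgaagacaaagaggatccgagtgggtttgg
Trim54: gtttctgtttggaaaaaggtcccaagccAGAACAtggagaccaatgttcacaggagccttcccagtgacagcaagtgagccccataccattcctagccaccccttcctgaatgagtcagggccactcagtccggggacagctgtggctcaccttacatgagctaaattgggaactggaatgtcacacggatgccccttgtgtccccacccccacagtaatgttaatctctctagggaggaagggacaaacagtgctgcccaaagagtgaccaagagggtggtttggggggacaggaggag
In Trim63 the hexamer began 200 bases before the start and the FoxO core 194 bases before it, both on the minus strand and side by side without overlap, which read TGTTCTTGTTTAC on the plus strand. The FoxO core was present in 3.65% and the hexamer in 18.97% of 32851 promoter windows, and both together in 0.877%. The joined string was in 1 of them, Trim63 itself, from which it was read. Trim54 held 1 hexamer, starting 222 bases before the start, and no FoxO core. A hexamer was also in the Nedd4 window at chr9:72693048-72693347, starting 216 bases before the start, and in no further ligase window. The full palindrome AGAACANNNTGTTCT was in none of the 9 ligase windows and in 3 of all windows. The E-box CANNTG, bound by myogenic factors, occurred at 3 positions in Trim63 and 2 in Trim54, and 72.31% of all windows held at least 1. Only exact matches were counted. In Trim63 the hexamer and the letters just before it on the plus strand differed from the full palindrome at 1 fixed base. The exact search therefore left this near match out, and near matches in the other windows were not counted. All these matches describe letters in the windows only.

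Fbxo32 was the ligase with the clearest difference, and its 3 probe sets did not give the same picture. On probe set 1417522_at it was lower after castration than in both other groups. It read 8.84, 8.64 and 8.94 on the testosterone arrays, 7.77, 7.54 and 7.88 on the castration arrays, and 8.60, 8.70 and 8.75 on the sham arrays. Every castration array lay below all 6 others, by more than the range within any group, and the testosterone and sham arrays overlapped. Castration averaged 7.73 ± 0.17 against 8.68 ± 0.07 in sham (SD, n = 3 each), a log2 difference of −0.95 (SE 0.11, 95% interval −1.20 to −0.70) or a 1.93-fold lower level. Testosterone averaged 8.80 ± 0.15, higher than castration by log2 1.08 (SE 0.11, 95% interval 0.83 to 1.32) or 2.11-fold. Both comparisons use the same castration arrays.

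**Figure D1:**
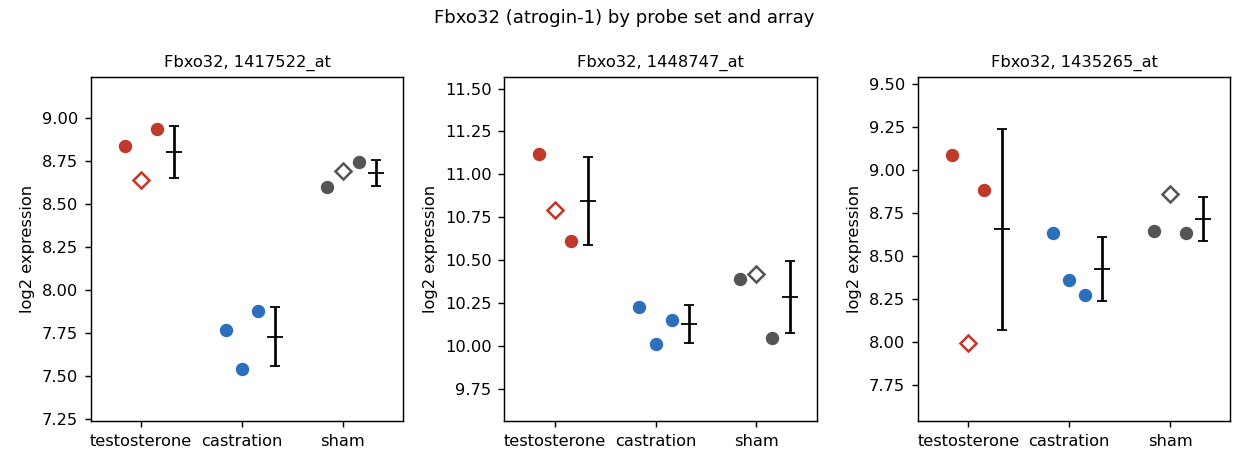
Log2 expression of Fbxo32 (vertical axis, each panel spanning 2 log2 units) by group for its 3 probe sets, with 1 point per array, open diamonds for testosterone 2 and sham 2, and bars for the mean and SD of 3 arrays. On 1417522_at all castration arrays lie below 7.9 and all others above 8.6, on 1448747_at only the testosterone arrays stand apart, and on 1435265_at the testosterone 2 array is lowest at 7.99.

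Among all 45037 probe sets, 1417522_at had the smallest p in testosterone against castration by limma and the fifth smallest in castration against sham. Adjusted by Benjamini-Hochberg over all probe sets, the limma adjusted p was 0.0872 in the first and 0.125 in the second, so neither passed 0.05. Leaving out sham 2 and testosterone 2, the log2 differences were 1.16 (adjusted p = 0.0386, limma) against castration and −0.94 (adjusted p = 0.0970) for castration against sham. Without sham 2 alone, which enters testosterone against castration only through the pooled spread, that adjusted p was 0.0346. Testosterone against sham differed by 0.12 (SE 0.11, 95% interval −0.13 to 0.37, adjusted p = 0.804), and by 0.21 without sham 2 and testosterone 2.

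The second Fbxo32 probe set, 1448747_at, which the annotation pairs with the same accession as 1417522_at, had the highest mean of the 3. It read 11.12, 10.79 and 10.62 with testosterone, 10.23, 10.01 and 10.15 after castration, and 10.39, 10.42 and 10.05 in sham. Here the testosterone arrays lay above all 6 others, and castration and sham overlapped. Castration differed from sham by −0.16 (SE 0.15, 95% interval −0.49 to 0.18), and by −0.09 without sham 2 and testosterone 2. Testosterone was above castration by 0.71 (SE 0.15) and above sham by 0.56 (SE 0.15) (limma, adjusted p of 0.614 and 0.797). This probe set had the same sign as 1417522_at in all 3 comparisons.

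Probe set 1435265_at, paired with another accession, separated no groups, with castration and sham meeting at 8.63. It read 9.09, 7.99 and 8.88 with testosterone, 8.63, 8.36 and 8.27 after castration, and 8.64, 8.86 and 8.63 in sham. The testosterone 2 array was the lowest of the 9, although it was not the lowest on the other 2 probe sets. Testosterone exceeded castration by 0.23 with all arrays and by 0.56 without sham 2 and testosterone 2, neither past the adjusted threshold (adjusted p of 1.00 and 0.441, limma).

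The unequal behaviour of the probe sets was measured on each array as 1417522_at minus 1448747_at. This gap was −2.28, −2.15 and −1.68 with testosterone, −2.46, −2.47 and −2.28 after castration, and −1.79, −1.72 and −1.30 in sham. It averaged −2.40 ± 0.11 after castration against −1.60 ± 0.27 in sham (SD, n = 3 each), a difference of −0.80 without overlap (exact permutation test, two-sided, p = 0.1, the smallest that 3 against 3 can give). Between testosterone and castration the gap differed by 0.36 (exact permutation test, p = 0.2). The place of each probe set along the transcript was not used here.

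By Pearson correlation over the 9 arrays, and among 3989 other genes with a mean of at least 6, the genes most like Fbxo32 on 1448747_at were Pacsin3 (r = 0.898), Gadd45g (0.885), Glo1 (0.814), Scap (0.809) and Nexn (0.797). On 1417522_at, added after its values were seen, they were Mss51 (r = 0.972), Tns1 (0.955), Spns2 (0.954), Smox (0.932) and Aldh1a1 (0.930). No gene was in both sets of 5. The points share arrays and group differences, so these correlations describe likeness only.

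Trim63 encodes MuRF1, a RING ligase that binds titin and myosin of the sarcomere. It read 10.03, 9.86 and 9.68 with testosterone, 9.54, 9.61 and 9.56 after castration, and 9.54, 9.73 and 9.77 in sham. The testosterone arrays lay above all castration arrays, with testosterone 3 only slightly so, and the castration and sham arrays overlapped. Testosterone exceeded castration by log2 0.29 (SE 0.10, 95% interval 0.06 to 0.52, limma, adjusted p = 1.00). Castration differed from sham by −0.11 (SE 0.10, 95% interval −0.35 to 0.12, not adjusted for the number of probe sets). Testosterone against sham differed by 0.18 (SE 0.10, adjusted p = 0.797). The genes most like Trim63 over the 9 arrays were Rnf11 (r = 0.938), Mef2d (0.901), Pold2 (0.886), Lbx1 (0.868) and Pbxip1 (0.862).

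Trim54 encodes MuRF3, a relative of MuRF1 that binds microtubules and the sarcomere. It read 11.06, 11.11 and 10.99 with testosterone, 10.78, 10.70 and 10.85 after castration, and 11.02, 11.07 and 11.00 in sham. As on Fbxo32 1417522_at, every castration array lay below all 6 others and testosterone and sham overlapped, but the differences were smaller. Castration averaged 10.77 ± 0.07 against 11.03 ± 0.04 in sham (SD, n = 3 each), a log2 difference of −0.26 (SE 0.07, limma, adjusted p = 0.883). Testosterone averaged 11.06 ± 0.06, above castration by 0.28 (SE 0.07, limma, adjusted p = 0.877). Testosterone against sham differed by 0.03 (SE 0.07). The first 2 differences were −0.24 and 0.25 without sham 2 and testosterone 2.

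**Figure D2:**
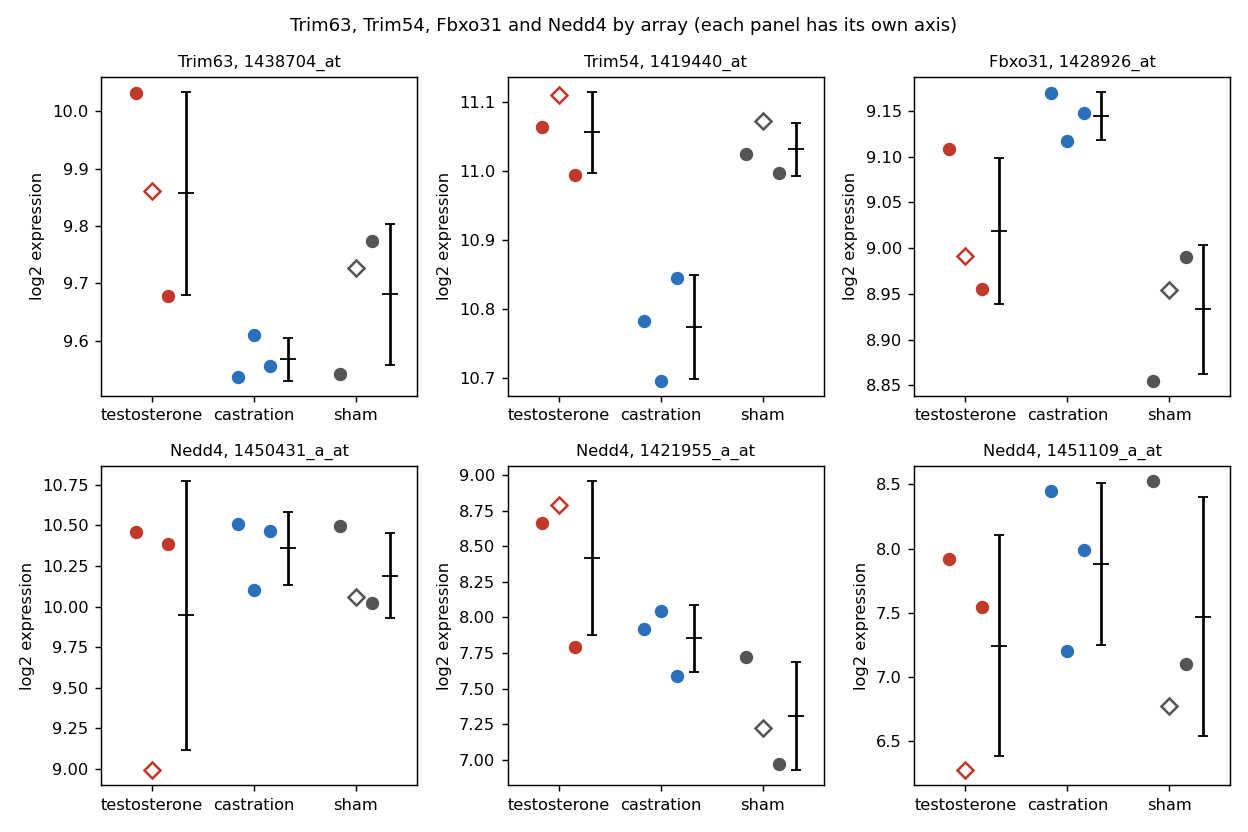
Log2 expression (vertical axis, a separate range in each panel) of Trim63, Trim54, Fbxo31 and the 3 probe sets of Nedd4 by group, with 1 point per array, open diamonds for testosterone 2 and sham 2, and bars for the mean and SD of 3 arrays. Trim54 is lowest on the 3 castration arrays and Fbxo31 highest on them, while the Nedd4 panels differ from each other and the testosterone 2 array is lowest on 2 of them.

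Fbxo31, the F-box protein of a ligase that degrades cyclin D1, ran the other way on the probe set with its higher mean. On 1428926_at it read 9.11, 8.99 and 8.96 with testosterone, 9.17, 9.12 and 9.15 after castration, and 8.85, 8.95 and 8.99 in sham. The castration arrays lay above all 6 others, though testosterone 1, at 9.11, came close to the lowest of them, at 9.12. Castration exceeded sham by log2 0.21 (SE 0.07, limma, adjusted p = 0.883), and testosterone was below castration by a log2 difference of −0.13 (SE 0.07). Its other probe set, 1417969_at, read 5.69, 5.75 and 5.52 with testosterone, 5.57 on each castration array, and 5.37, 5.50 and 5.38 in sham. There testosterone exceeded sham by 0.24 (SE 0.08, limma, adjusted p = 0.797) and castration by 0.08, the last being 0.03 without sham 2 and testosterone 2. The 2 probe sets thus had opposite signs in testosterone against castration. The castration minus sham difference on 1417969_at, 0.16, also turned to −0.04 after renewed quantile normalisation.

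Nedd4, a HECT-type ligase with roles in denervated muscle and in growth factor signalling, varied more between arrays than between groups on 2 of its 3 probe sets. On 1450431_a_at it read 10.46, 8.99 and 10.39 with testosterone, 10.51, 10.10 and 10.47 after castration, and 10.49, 10.06 and 10.02 in sham. The testosterone 2 array alone lay low: testosterone against castration was −0.41 (SE 0.36) with all arrays and 0.07 without sham 2 and testosterone 2. On 1451109_a_at the readings were 7.92, 6.27 and 7.54 with testosterone, 8.45, 7.20 and 7.99 after castration, and 8.53, 6.77 and 7.10 in sham, and all groups overlapped. In each group replicate 1 was the highest there and replicate 2 the lowest. On 1421955_a_at the same testosterone 2 array was the highest: 8.67, 8.79 and 7.79 with testosterone, 7.92, 8.05 and 7.59 after castration, and 7.72, 7.23 and 6.97 in sham. There testosterone lay above sham without overlap, by log2 1.11 (SE 0.28, limma, adjusted p = 0.797), and by 0.89 without sham 2 and testosterone 2. Castration against sham differed by 0.55 (SE 0.28) on that probe set.

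The remaining ligases were dim. All 11 probe sets of Fbxo30, Fbxo21, Mul1 and Cblb had a mean under 5, and the other 10 ligase probe sets had a mean above it. Fbxo30 (MUSA1), an F-box protein that BMP signalling restrains, read 3.99, 4.21 and 4.02 with testosterone, 4.02, 4.13 and 3.80 after castration, and 3.64, 3.14 and 4.04 in sham on its brightest probe set. Sham 2 was the lowest array and sham 3 lay within the range of the other groups. Testosterone exceeded sham by 0.47 (SE 0.20, adjusted p = 0.797, limma) and castration exceeded sham by 0.37 (SE 0.20). Without sham 2 alone these differences were 0.24 and 0.14, and without sham 2 and testosterone 2 they were 0.17 and 0.14.

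Cblb, a ligase that restrains receptor signalling and acts on Irs1 in unloaded muscle, showed the same arrangement on its brightest probe set, with 4.27, 4.41 and 4.37 with testosterone, 4.39, 4.35 and 4.26 after castration, and 4.12, 3.59 and 4.27 in sham. Testosterone against sham differed by 0.36 (SE 0.16) and testosterone against castration by 0.02 (SE 0.16). With sham 2 left out, Cblb differed between testosterone and sham by 0.16, and between castration and sham by 0.14 in place of 0.34. Without testosterone 2 as well, testosterone against sham was 0.13 and testosterone against castration −0.01.

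Mul1, a mitochondrial ligase that acts on mitofusin 2, read 4.91, 5.54 and 4.60 with testosterone, 4.73, 5.20 and 4.51 after castration, and 4.44, 4.06 and 4.73 in sham on 1451401_a_at, and all groups overlapped. Its other probe set had opposite signs in both comparisons with testosterone, −0.43 against castration and −0.20 against sham, where 1451401_a_at gave 0.20 and 0.60. Testosterone 2 was the highest and sham 2 the lowest array on 1451401_a_at. Without both, its differences were −0.06 against castration and 0.17 against sham, and those of the other probe set −0.28 and −0.06. Without testosterone 2 alone, 1451401_a_at gave 0.34 against sham. Fbxo21 (SMART), a further F-box protein of the FoxO programme, differed on its brighter probe set by −0.01 between castration and sham. It differed there by 0.09 between testosterone and castration and by 0.09 between testosterone and sham, and each SE was 0.20. The first was −0.20 and the second 0.27 without sham 2 and testosterone 2. Its other probe set gave −0.16, 0.03 and −0.13 in the same order, so the signs were opposite in testosterone against sham.

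**Figure D3:**
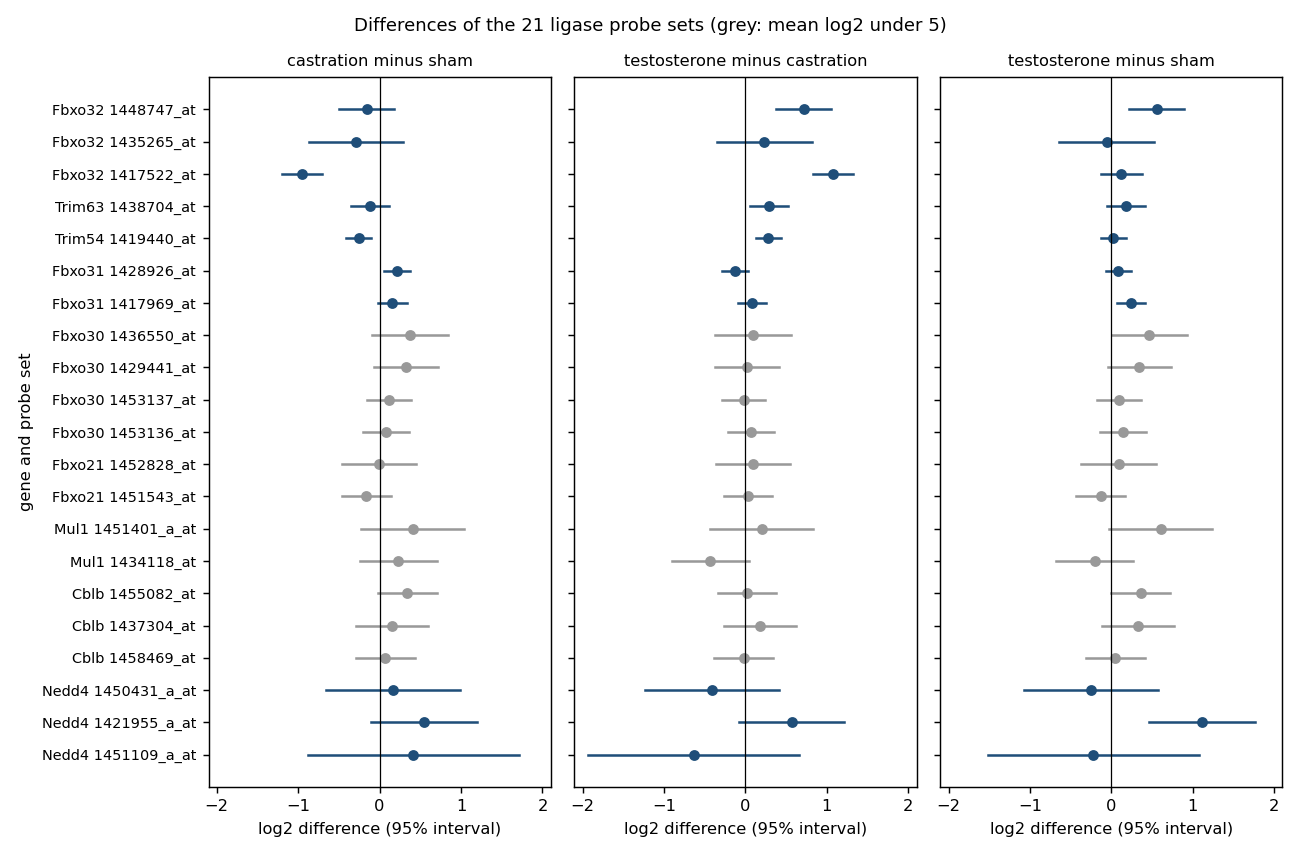
Log2 difference (horizontal axis) with its 95% limma interval for the 21 ligase probe sets in the 3 comparisons, in blue for probe sets with a mean of at least 5 and in grey for those under 5. Fbxo32 1417522_at lies farthest from 0 in castration minus sham (−0.95) and in testosterone minus castration (1.08), and Nedd4 1421955_a_at in testosterone minus sham (1.11).

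Over the whole set, castration against sham, read for the effect of losing the testes, gave 14 probe sets higher and 7 lower, with a median of 0.15 against 0.00 for all probe sets. None of the 21 passed (limma, adjusted over all probe sets), and 0% of the table did. At an unadjusted p under 0.05 there were 3 (Fbxo31 1428926_at higher, Fbxo32 1417522_at and Trim54 lower), or 3 of 21, where 4.19% of all probe sets were at this level. Leaving out 1 array gave 3 to 7, with 7 without sham 3 and 5 without testosterone 3, and the share of the table was not counted for these fits. The 2 groups of arrays did not overlap for 4 ligase probe sets, against 7.97% of the table. Without sham 2 and testosterone 2 the split was 12 higher and 9 lower with a median of 0.07, and 4 were at an unadjusted p under 0.05 against 4.55% of the table.

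Testosterone against castration, read for the effect of replacement, gave 15 probe sets higher and 6 lower, with a median of 0.08. None passed, 0% of the table did, and 4 were at an unadjusted limma p under 0.05, all higher with testosterone: Fbxo32 on 1417522_at and on 1448747_at, Trim54 and Trim63. Across the table, 1.47% of probe sets were higher at this level and 3.02% in either direction. The arrays did not overlap for 5 of the 21, against 7.94% of the table. Without sham 2 and testosterone 2 there were 14 higher and 7 lower with a median of 0.03, and 6 were at an unadjusted p under 0.05 against 4.55% of the table. The arrays then did not overlap for 7 of the 21, against 15.7% of the table. Fbxo32 1417522_at passed the adjusted threshold, as did 0.0444% of the table.

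Testosterone against sham, read for the overall effect, gave 16 probe sets higher and 5 lower, with a median of 0.12. Again none passed, and 0% of the table did. At an unadjusted limma p under 0.05 there were 5, all higher with testosterone, against 2.69% of the table higher and 4.75% in either direction: Fbxo32 1448747_at, Nedd4 1421955_a_at, Fbxo31 1417969_at and the brightest probe sets of Fbxo30 and Cblb. The arrays did not overlap for 3 of the 21, against 6.82% of the table. Those of Fbxo30 and Cblb overlapped, and sham 2 was the lowest array for both. Leaving out 1 array gave 3 to 8 at an unadjusted p under 0.05, with the share of the table not counted. It was 8 without sham 3 and 3 without sham 1, sham 2, testosterone 1, testosterone 2 or any 1 castration array. There were 17 higher and 4 lower without sham 2 and testosterone 2, and 4 were at this level against 3.23% of the table. Fbxo30 and Cblb were no longer among them and Fbxo32 1435265_at was. The arrays then did not overlap for 5 of the 21, against 24.2% of the table.

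The ligases work with ubiquitin, its activating and conjugating enzymes and the cullin scaffolds, and none of these genes passed in any comparison with all arrays (limma, adjusted over all probe sets, 1 probe set a gene). Among SCF and cullin genes, 20 of 21 measured members were higher after castration than in sham, with a median of 0.19 against 0.01 for all genes. It was 15 of 21 with a median of 0.04 without sham 2 and testosterone 2. The dim Cand1, which exchanges the substrate receptors of cullin ligases, differed by 0.48, and 2 of its 4 probe sets shared the sign. Uba3, part of the enzyme that activates Nedd8, differed by 0.60. These differences were 0.30 for Cand1 and 0.38 for Uba3 without those arrays. Ubiquitin, E1 and E2 genes were higher in 17 of 19 (median 0.14), and in 13 of 19 without those arrays (median 0.04). Ube2v2 differed by 0.48 and Ube2b, an E2 studied in wasting muscle, by 0.32, and without those arrays by 0.16 and 0.20.

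In testosterone against castration the same lists had 6 of 21 and 8 of 19 members higher, with medians of −0.07 and −0.03. Without sham 2 and testosterone 2 these were 13 of 21 and 10 of 19, with medians of 0.02 for both. Cops6, a signalosome subunit, differed by −0.29 (−0.16 without those arrays) and Cand2, the muscle form of Cand1, by 0.58, with the opposite sign on its other probe set. Ube2n, the E2 for lysine-63 chains, read 5.99, 6.25 and 6.92 with testosterone and 7.27, 7.34 and 7.26 after castration, a difference of −0.90 (limma, adjusted p = 1.00), and its other probe set had the opposite sign. Ube2j1 differed by 0.46.

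The list of other ubiquitin ligases studied in muscle also held partner proteins of ligases, among them Ndfip1, Ndfip2 and Mdm4. Its genes were higher after castration than in sham in 23 of 31 (median 0.17 against 0.01 for all genes). Without sham 2 and testosterone 2 it was 17 of 31 (median 0.03). Fbxw7 differed by 0.39 and the dim Cbl by 0.34 (0.23 and 0.22 without those arrays). With testosterone the listed genes were higher than after castration in 20 of 31. Asb2, an ankyrin repeat substrate receptor of muscle, was at 0.28 and Klhl41, a sarcomeric kelch protein, at −0.35. Deubiquitinases were higher after castration in 17 of 20 (11 of 20 without those arrays), with Uchl5 at 0.55 and the dim Otud1 at 0.48 (0.30 and 0.28 without them). Usp13 was above castration by 0.29 with testosterone.

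Among 35 measured regulators upstream of the ligases, 21 were higher and 14 lower after castration than in sham (17 and 18 without sham 2 and testosterone 2), and none passed. Myog, a myogenic factor that induces Fbxo32 and Trim63 in denervated muscle, read 4.49, 4.97 and 4.40 with testosterone, 5.93, 5.46 and 5.28 after castration, and 4.38, 4.30 and 4.35 in sham. Its castration arrays lay above all others, by log2 1.21 over sham (adjusted p = 0.343, limma) and with testosterone below castration by a log2 difference of −0.93 (adjusted p = 0.582). Klf15, a glucocorticoid-induced factor that acts with FoxO on both ligases, was 0.49 higher after castration than in sham (adjusted p = 0.883). On these arrays Myog was highest in the group where Fbxo32 1417522_at was lowest. Castration and sham were not separated on the other Fbxo32 probe sets or on Trim63. Any link between Myog and the ligases was not tested. Ppargc1a, a coactivator that restrains FoxO activity, read 8.33, 8.35 and 7.88 with testosterone, 7.60, 7.91 and 7.14 after castration, and 7.31, 6.20 and 6.80 in sham. Testosterone exceeded sham by 1.42 (adjusted p = 0.797, limma). Castration also exceeded sham, by 0.78 (0.50 without sham 2 and testosterone 2), and its arrays overlapped those of both other groups. In testosterone against castration 19 of these regulators were higher and 16 lower, and in testosterone against sham 25 and 10, and none passed. Without sham 2 and testosterone 2 these were 18 and 17, and 21 and 14. Zbtb16 was above castration by 1.15 with testosterone, and the dim Runx1 differed by −0.34 between testosterone and sham.

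Genes of proteins named as targets of these ligases were about evenly split in testosterone against castration, with 15 of 29 higher (median 0.01). After castration 20 of 29 were higher than in sham (median 0.05), and 15 of 29 without sham 2 and testosterone 2 (median 0.01). Ppp3ca, a catalytic subunit of calcineurin, was 0.34 higher after castration than in sham and differed by −0.21 between testosterone and castration. Des, the desmin filament gene, was 0.24 above castration with testosterone, while its other probe set had the opposite sign. Among the hormone-responsive reference genes, 11 of 14 were higher with testosterone than after castration (median 0.59), led by Smox at 2.45 (adjusted p = 0.0872) and Fkbp5 at 1.46 (adjusted p = 0.110). In castration against sham 7 were higher and 7 lower (median −0.28), and 3 higher and 11 lower without sham 2 and testosterone 2 (median −0.58). Without sham 2 and testosterone 2, Smox, Slc38a2 and Odc1 passed in testosterone against castration, with log2 differences of 2.49, 1.35 and 1.51. Smox and Slc38a2 then passed in castration against sham, with −2.49 and −1.16 (limma, adjusted over all probe sets). Of all probe sets, 0.0444% passed in the first comparison and 0.0333% in the second.

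**Figure D4:**
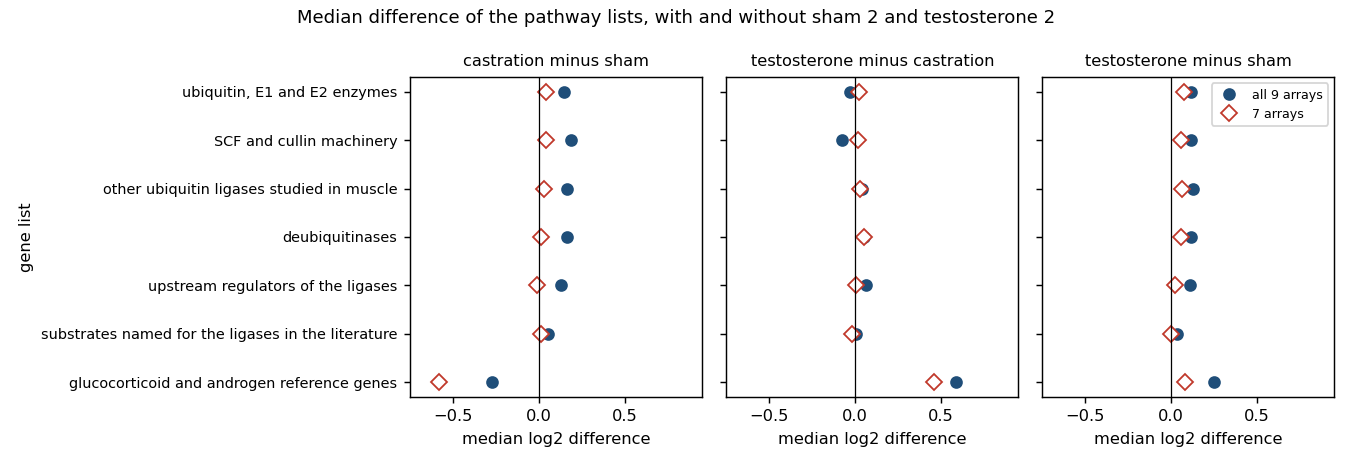
Median log2 difference (horizontal axis) of each pathway list in the 3 comparisons, with filled circles for all 9 arrays and open diamonds for the 7 arrays without sham 2 and testosterone 2. In castration minus sham the ubiquitin, cullin, ligase and deubiquitinase medians lie between 0.14 and 0.19 with all arrays and between 0.01 and 0.04 with 7.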

How the data were processed

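The authors deposited log2 expression values per probe set, made with RMA (version not given in the sources used here) per the submitters' processing notes. This method removes background, quantile-normalises arrays together and summarises probes, so a shift common to an array is lost and an aberrant array can move the others. The values were used as deposited. Of 45101 probe sets, 64 controls were left out. The platform annotation lists 34945 probe sets to 1 gene, 932 to several and leaves 9160 unlisted. Groups and replicate numbers came from the sample titles, which call the arrays biological replicates.

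Each probe set was fitted with limma 3.58.1 (R 4.3.3, moderated by eBayes) on all 9 arrays with group as the only term, tested two-sided, adjusted by Benjamini-Hochberg over 45037 probe sets with a threshold of 0.05, and checked on simulated data. For pathway lists a gene was taken by its probe set with the highest mean. All ligases were named. From the lists up to 2 genes with the smallest p in a comparison were named, and for likeness the 5 highest correlations, without predicted and clone names. Members, lists and tests were chosen with earlier results of these data known. No pair of arrays had more than 5.78% identical values.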

Additional observations from a re-analysis of the deposited data

How the results depend on the processing

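Whether the replicate numbers pair the arrays could not be settled with 3 arrays in a group, and a replicate block is given only here. Deviations of same-numbered arrays correlated between −0.474 and 0.312, and those of differently numbered arrays between −0.355 and 0.485. With the replicate block 0 ligase probe sets passed in each comparison, as without it. At an unadjusted p under 0.05 the block gave 4, 6 and 3 ligase probe sets in castration against sham, testosterone against castration and testosterone against sham. These counts were 3, 4 and 5 without the block. Over the other alternatives with all arrays they ran from 2 to 7, 3 to 5 and 1 to 7, with the 7 from array weights and the 1 from taking 1 probe set a gene or averaging a gene's probe sets. Leaving out 1 array gave 3 to 7, 3 to 6 and 3 to 8. The share of the whole table at this level was not counted for the block, these alternatives or the fits leaving out 1 array. A change in these counts therefore cannot be told from a change across the table.

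Only Fbxo32 1417522_at ever passed among the ligase probe sets. In testosterone against castration this count was 1 without probe sets of mean under 5 (adjusted p = 0.0384), 1 with array weights (adjusted p = 0.00692), 1 leaving out sham 2 and testosterone 2, and 0 to 1 leaving out 1 array, the 1 being without sham 2. In castration against sham it was 1 with array weights (adjusted p = 0.0174) and 0 leaving out any 1 array. Over these alternatives its adjusted p lay between 0.00692 and 0.622 for testosterone against castration and between 0.0174 and 0.822 for castration against sham, while the log2 differences kept their signs. It was not tested with 1 probe set a gene, since 1448747_at then stands for Fbxo32. Features passing in the whole table, 0 with all arrays, numbered 0 to 32, 0 to 42 and 0 to 1 in the 3 comparisons, highest with array weights for the first and second and with the analysis of variance without moderation for the third. Leaving out 1 array gave at most 2, 17 and 0, the 2 and the 17 without sham 2.

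Signs that turned belonged to differences that did not pass. When a gene's probe sets were averaged, Mul1 was −0.12 in testosterone against castration, and Fbxo21 and Nedd4 were −0.023 and 0.21 in testosterone against sham. Renewed quantile normalisation gave Fbxo31 1417969_at −0.036, and median centring gave Fbxo21 0.026, both in castration against sham. Array weights gave −0.11 for Nedd4 1451109_a_at in castration against sham, −0.0056 for Cblb in testosterone against castration and 0.15 for Fbxo32 1435265_at in testosterone against sham. Without sham 2 and testosterone 2, Cblb, Mul1 and Nedd4 1450431_a_at were −0.013, −0.064 and 0.065 in testosterone against castration, and Fbxo32 1435265_at and Nedd4 1450431_a_at were 0.35 and 0.17 in testosterone against sham.

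Leaving out 1 array, the ranges that crossed 0 were −0.20 to 0.12 for Fbxo21 in castration against sham. In testosterone against castration they were −0.029 to 0.27 for Fbxo21, −0.019 to 0.055 for Cblb, −0.064 to 0.41 for Mul1 and −0.67 to 0.065 for Nedd4 1450431_a_at. In testosterone against sham they were −0.11 to 0.26 for Fbxo21, −0.28 to 0.27 for Fbxo32 1435265_at, −0.50 to 0.23 for Nedd4 1450431_a_at, −0.57 to 0.31 for Nedd4 1451109_a_at and −0.0021 to 0.056 for Trim54. The cause of these turns was not tested. For dim probe sets, signal near the array median limits what can be read.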
